A study of Mus musculus with 27 samples.

Results

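The genes described here are 10 smooth muscle contractile genes: Acta2, Myh11, Tagln, Cnn1, Smtn, Lmod1, Mylk, Tpm1, Tpm2 and Myocd. They were taken by symbol from 4 bulk count tables, each with 42375 named rows, and from 4 single-cell matrices, each with 32285 genes. Each symbol had a row in every table and matrix. Rows were picked by symbol, though the list of genes was chosen with earlier results of these data known.

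Smooth muscle cells of the arterial wall contract when actin filaments slide along a smooth muscle form of myosin. Acta2 encodes the smooth muscle actin and Myh11 the myosin heavy chain, while Mylk encodes the kinase that switches myosin on by phosphorylating its light chain. Tagln (also called SM22), Cnn1 (calponin) and Smtn (smoothelin) bind actin, and Lmod1 starts new actin filaments. Tpm1 and Tpm2 encode tropomyosins, which lie along the filament and are made in skeletal and cardiac muscle as well as in smooth muscle. Myocd encodes myocardin, the coactivator that works with serum response factor (SRF) to switch on contractile genes through DNA elements called CArG boxes. Acta2, Tagln and Tpm1 are also made by activated fibroblasts, so that none of these 3 marks smooth muscle alone, and smooth muscle cells are known to lose contractile gene expression when they take on a matrix-producing state.

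The study concerns KLF10, IL-9 and CD4+ T cells in scarring around vessels, and every mouse had the labelled strain background C57BL/6 and 28 days of infusion with angiotensin II (Ang II), a hormone that constricts vessels and raises blood pressure. Bulk libraries were made from 3 Cre and 3 TKO aortas that were not stripped, from 4 Cre and 2 TKO stripped aortas, from fibroblasts taken out of digested aortas of 3 Cre and 3 TKO samples, and from TKO aortas, also not stripped, after Ang II together with control IgG (3) or IL-9 antibody (2). Droplet single-cell libraries came from digested aortas that were not stripped (2 Cre, 2 TKO). The genotypes are given as Cre and TKO only: the labels used here do not spell out the allele, the promoter driving Cre, the ages of the mice, what stripping removed, or whether samples came from separate mice, so p-values measure only the spread between these samples. For the stripped libraries, the title alone reads nonstripped, and the grouping follows the tissue, source and description labels.

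The 23 bulk libraries held 17179257 to 38633457 counts. Klf10 itself was at 40.7 to 65.7 CPM (counts per 1e6 library counts, with TMM scaling between the libraries of a table) in non-stripped Cre and at 41.3, 35.4 and 0 CPM in the 3 non-stripped TKO libraries. In stripped aorta it was at 29.7 to 62.8 CPM in Cre against 20.6 and 37.3 in TKO, and in fibroblasts at 61.0 to 73.3 against 58.3 to 71.2. These are levels over all cells of a tissue and do not check a change limited to T cells. Non-stripped TKO replicate 3, the library with 0 Klf10 counts, also held the most skeletal muscle RNA, so the results for the 10 genes in that tissue are also given without it. In bulk samples, fewer smooth muscle cells and less contractile RNA per cell cannot be told apart.

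Promoter sequences are shown because SRF and myocardin act at CArG boxes, and because Acta2 and Cnn1 on one side and Tpm1 and Tpm2 on the other differed in direction below (the last pair was chosen after its values were seen). RefSeq sequences of GRCm38.p6, from 250 bases before to 50 bases after the gene start, were given for 7 of the 10 genes, all but Myh11, Tagln and Myocd. Letters in capitals mark stretches within 1 mismatch of a CArG box on either strand. Acta2 lies on chromosome 19, minus strand (promoter chr19:34255324-34255623), Cnn1 on chromosome 9, plus strand (chr9:22099003-22099302), Tpm1 on chromosome 9, minus strand (chr9:67049164-67049463), and Tpm2 on chromosome 4, minus strand (chr4:43523505-43523804).
Acta2 promoter: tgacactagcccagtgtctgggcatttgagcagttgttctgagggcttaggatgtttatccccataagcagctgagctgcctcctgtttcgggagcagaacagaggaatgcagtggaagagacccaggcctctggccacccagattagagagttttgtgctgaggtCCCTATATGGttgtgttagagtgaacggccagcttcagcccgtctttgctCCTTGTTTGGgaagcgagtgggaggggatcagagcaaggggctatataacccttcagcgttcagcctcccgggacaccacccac
Cnn1 promoter: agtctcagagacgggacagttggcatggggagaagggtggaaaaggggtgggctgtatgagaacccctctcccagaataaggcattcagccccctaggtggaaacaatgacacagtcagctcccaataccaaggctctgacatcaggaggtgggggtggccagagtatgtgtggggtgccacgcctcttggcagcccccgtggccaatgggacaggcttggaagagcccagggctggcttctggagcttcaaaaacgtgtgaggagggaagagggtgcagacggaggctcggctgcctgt
Tpm1 promoter: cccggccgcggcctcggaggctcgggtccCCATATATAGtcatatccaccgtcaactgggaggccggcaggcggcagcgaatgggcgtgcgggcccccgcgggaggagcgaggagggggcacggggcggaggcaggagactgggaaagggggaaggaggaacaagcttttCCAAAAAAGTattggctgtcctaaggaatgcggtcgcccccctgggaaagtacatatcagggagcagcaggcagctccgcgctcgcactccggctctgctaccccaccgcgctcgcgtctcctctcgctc
Tpm2 promoter: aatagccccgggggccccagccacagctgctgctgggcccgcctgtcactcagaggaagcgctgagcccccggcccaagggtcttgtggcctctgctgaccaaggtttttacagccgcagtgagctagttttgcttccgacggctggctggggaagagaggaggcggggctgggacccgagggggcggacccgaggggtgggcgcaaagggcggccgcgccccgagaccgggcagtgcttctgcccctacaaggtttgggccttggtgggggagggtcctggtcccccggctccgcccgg
A full match to the CArG box was in 0 of the 7 windows and in 1.63% of 32851 mouse promoters (535). With up to 1 mismatch it was in 3 of 7, namely Acta2, Lmod1 and Tpm1, and in 21.1% of all promoters. The Acta2 matches start 84 and 34 bases before the gene start, those of Tpm1 221 and 80 bases before it, and those of Lmod1 189 and 164 bases before it. A TATAAA motif on either strand, which can lie inside a CArG box, was in 0 of the 7 windows and in 13.6% of all promoters. A match describes letters in this window and says nothing of binding.

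Levels between genes are compared as mean CPM per kilobase of exon, using the GENCODE vM21 gene models, from the 1.988 kb of Tagln to the 11.263 kb of Mylk. Acta2 stood highest in 7 of the 8 bulk groups, from 89.0 CPM per kb in non-stripped Cre to 1766 in stripped Cre, and Myocd stood lowest in all 8, between 0.0318 and 0.886. In stripped Cre aorta the order was Acta2, Tagln (427 CPM per kb), Tpm2 (226), Myh11 (156), Cnn1 (153), Tpm1 (139), Smtn (103), Lmod1 (70.5), Mylk (25.7) and Myocd. The ranges of the neighbours Myh11, Cnn1 and Tpm1 overlapped there, while Acta2, Tagln and Tpm2 were each apart from the next gene. Non-stripped TKO aorta was the group with another leader: Tpm2 had a mean of 234 CPM per kb and a range of 114 to 466.3, Tpm1 a mean of 118 and a range of 69.7 to 215, and Acta2 a mean of 34.2. In fibroblasts, Myh11 stood at 2.99 CPM per kb in Cre, far below Acta2 (495), Tpm1 (140) and Smtn (56.3) in the same libraries. Tables were scaled separately, so no test compares levels between them.

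**Figure D1:**
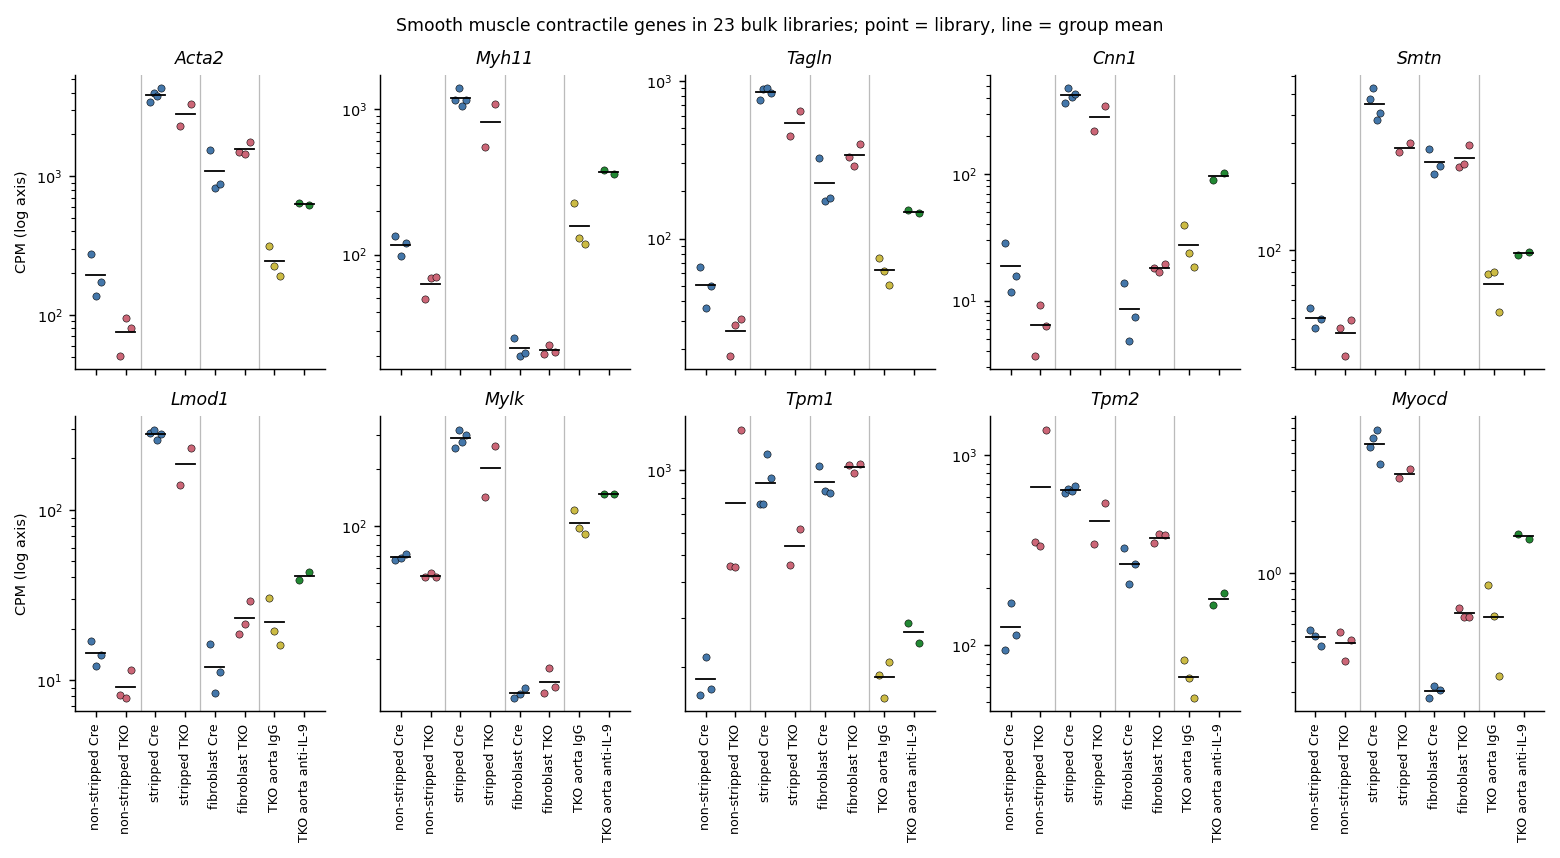
Level of each of the 10 contractile genes (CPM, log axis) in each of the 23 bulk libraries, with groups on the x axis, points for libraries, short lines for group means and grey lines between separately scaled tables. Tpm1 and Tpm2 are higher in non-stripped TKO than in non-stripped Cre, where Acta2, Myh11, Tagln and Cnn1 are lower, and all 10 genes are higher in anti-IL-9 than in IgG libraries.

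In non-stripped aorta, the actin and myosin genes were at lower levels in every TKO library than in any Cre library, while both tropomyosin genes were at higher levels. Acta2 was at 277, 137 and 173 CPM in Cre and at 50.7, 94.4 and 80.0 CPM in TKO. Myh11 was at 133, 98.0 and 119 CPM in Cre against 49.3, 68.4 and 70.4 CPM in TKO. Neither gene's groups overlapped, and Cre replicate 1 was the highest library for both. The log2 fold change of TKO over Cre was -1.38 ± 0.30 (SE) for Acta2 and -0.90 ± 0.16 for Myh11, with adjusted p = 0.0803 and 0.0729 (edgeR, quasi-likelihood test, n = 3 and 3, Benjamini-Hochberg over all genes tested).

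The actin-binding genes Tagln and Cnn1 had the same direction. Tagln was at 66.2, 36.1 and 50.2 CPM in Cre and at 17.98, 28.2 and 31.0 CPM in TKO, a log2 difference of -0.99 ± 0.25 (edgeR adjusted p = 0.102). Cnn1 was at 28.6, 11.7 and 15.8 CPM in Cre and at 3.67, 9.20 and 6.28 CPM in TKO, a difference of -1.55 ± 0.40 (edgeR adjusted p = 0.0981). Lmod1 (14.3 ± 2.48 CPM in Cre, 9.15 ± 1.94 in TKO, SD) and Mylk (68.6 ± 2.46 against 55.0 ± 1.29) also did not overlap, at -0.65 ± 0.19 and -0.32 ± 0.08. Smtn overlapped between the groups (49.8 ± 5.15 against 42.6 ± 7.85 CPM), and Myocd, at 0.305 to 0.465 CPM in these 6 libraries, did not pass the filter on low counts and was not tested.

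Tropomyosin transcripts went the other way. Tpm1 was at 159, 217 and 167 CPM in Cre and at 458, 452 and 1395 CPM in TKO. Tpm2 was at 94.2, 167 and 114 CPM in Cre and at 350.0, 333 and 1356 CPM in TKO. TKO replicate 3 was the highest library for both, and the groups did not overlap without it either. Leaving it out does not even out skeletal muscle RNA. TKO replicates 1 and 2 held 6361 and 5519.8 CPM of summed skeletal muscle genes, against 522 to 1890.4 CPM in Cre. The log2 fold changes were 2.08 ± 0.43 for Tpm1 and 2.44 ± 0.55 for Tpm2 (edgeR adjusted p = 0.0779 and 0.0848). Without TKO replicate 3 they were 1.33 and 1.45 (edgeR adjusted p = 0.0113 and 0.0250), both called, and Myh11 was called at -0.99 (edgeR adjusted p = 0.0388), in a fit that called 224 genes in all. The other genes were not called without that library: Acta2 was at -1.43, Tagln at -1.14, Cnn1 at -1.55, Lmod1 at -0.84, Mylk at -0.31 and Smtn at -0.34.

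Counted over the list, 0 of the 9 tested contractile genes passed an adjusted p of 0.05 in non-stripped aorta, where 0.119% of the 15162 genes tested did (18, with 0.0594% in each direction). At an unadjusted p under 0.05, 8 of the 9 passed: 6 lower (Acta2, Myh11, Tagln, Cnn1, Lmod1, Mylk), against 5.85% of all genes, and 2 higher, against 12% of all genes. The same 6 were lower in every TKO library, as were 10.6% of all genes, and the same 2 were higher, as were 14.9%. DESeq2, which called 801 genes in all, called 4 lower (Acta2, adjusted p = 0.0177; Myh11, 6.28e-05; Tagln, 0.00314; Cnn1, 0.000831) and 2 higher (Tpm1, 0.0182; Tpm2, 0.0323). The median log2 fold change was -0.65 over the 9 genes and -0.018 over all genes tested.

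Skeletal muscle genes were high in the same libraries as the tropomyosins. All 16 genes of a skeletal muscle list were higher in every TKO library, with a median log2 fold change of 3.27 and 0 called by edgeR. Their summed level was 522, 1890.4 and 986 CPM in Cre and 6361, 5519.8 and 22277 CPM in TKO, and 0 of the 16 were at 0 counts in any of the 6 libraries. Within each genotype, the order of the 3 libraries by skeletal sum was also their order by Tpm1 and by Tpm2. Of 9 tested cardiac muscle genes, 8 had positive log2 fold changes (summed level 16.3 to 86.9 CPM in Cre, 205 to 1036 in TKO). The part of striated muscle RNA in the tropomyosin difference was not tested. Endothelial markers had negative values in 12 of 12 (median -0.36, 0 called), with sums of 1216 to 1366 CPM in Cre and 969 to 1092 CPM in TKO.

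**Figure D2:**
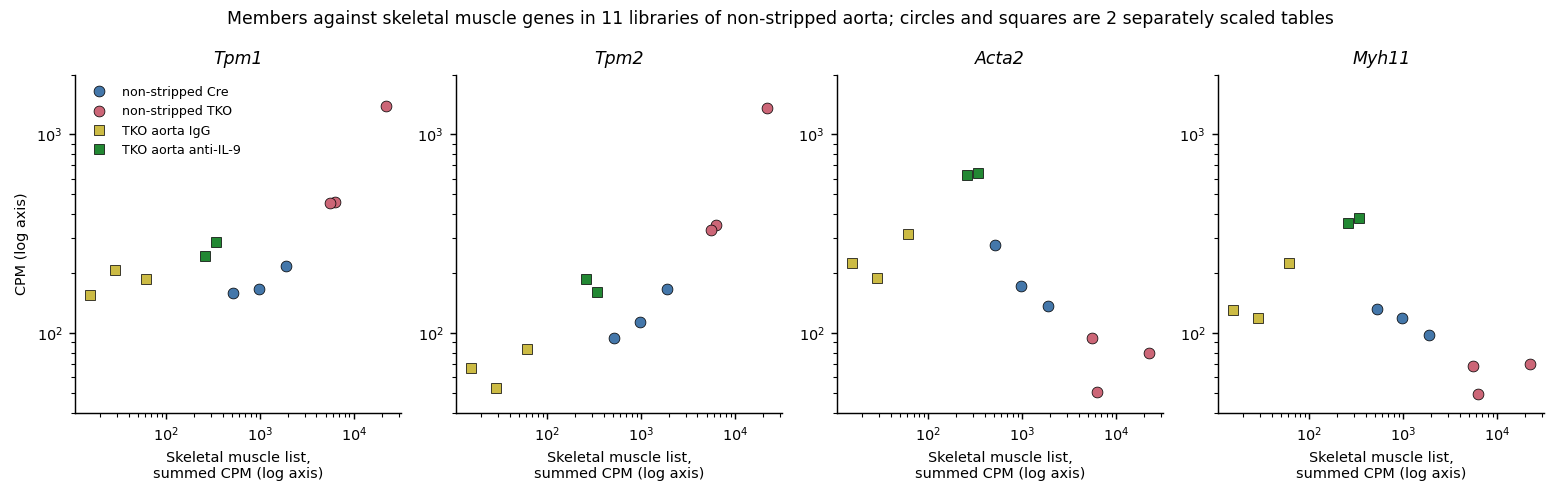
Tpm1, Tpm2, Acta2 and Myh11 (CPM, log axis) against the summed CPM of 16 skeletal muscle genes (log axis) in 11 libraries of non-stripped aorta, with circles for the Cre and TKO table and squares for the IgG and anti-IL-9 table, which were scaled separately. TKO replicate 3, at a summed 22277 CPM, holds the highest Tpm1 and Tpm2, while among the circles Acta2 and Myh11 are highest in the library with the lowest sum.

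Other genes of the contractile machinery were mixed in non-stripped aorta. Of 35 further contractile apparatus genes, 20 had positive and 15 negative log2 fold changes (median 0.13), with 0 called. Those with the smallest p were Pdlim3, a Z-disc protein also found in striated muscle (1.62 ± 0.31, adjusted p = 0.0729), the integrin subunit Itga8 (-1.48 ± 0.31, 0.0803) and Fhl1, a LIM protein of muscle (0.88 ± 0.19, 0.0803), none of them called by edgeR. Of 30 contraction signalling genes, 17 were positive and 13 negative, led by the kinase Rock2 (0.52 ± 0.11) and by 2 subunits of the same potassium channel in opposite directions, Kcnmb1 (-1.55 ± 0.35) and Kcnma1 (1.43 ± 0.36). Among 21 SRF and myocardin regulators, 14 were positive, led by Tead1 (0.86 ± 0.19), Heyl (-0.66 ± 0.16) and Mef2c (1.64 ± 0.42). The list for the matrix-producing state also holds genes that do not encode matrix, such as Cd68, Il6 and Ccnd1. Of 19 genes of the matrix-producing state, 12 were positive and 7 negative, with Lgals3 at 0.68 ± 0.13, Eln at -0.87 ± 0.21 and Mgp at -0.42 ± 0.12. None of these genes was called.

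In stripped aorta all 10 genes had negative log2 fold changes in TKO, the tropomyosins included, from -0.74 (Tpm1) to -0.47 (Acta2). Acta2 was at 3450.2, 3970.3, 3761 and 4333 CPM in Cre and at 2286 and 3299.7 CPM in TKO. Smtn was at 475, 531, 382 and 409.7 CPM in Cre and at 274 and 301 CPM in TKO. The 2 TKO libraries lay below the 4 Cre libraries for both genes, and TKO replicate 1 was the lowest. Smtn had a log2 difference of -0.64 ± 0.16 (edgeR adjusted p = 0.209) and Acta2 one of -0.47 ± 0.19 (adjusted p = 0.343, n = 2 and 4).

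Tropomyosin levels were lower as well. Tpm1 was at 762, 759, 1140.4 and 939.8 CPM in Cre and at 461 and 617 CPM in TKO (log2 difference -0.74 ± 0.22, edgeR adjusted p = 0.246). Cre replicate 3, the highest for Tpm1, also held the most cardiac muscle RNA (a summed 5160.5 CPM against 142 to 919.8 in the other Cre and 76.1 and 311 in the TKO libraries), and without it the Tpm1 difference was -0.61. Tpm2 was at 630.3, 665, 642 and 690.0 CPM in Cre against 340.2 and 559 in TKO (-0.55 ± 0.20). No other test of cardiac RNA was made for these genes.

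Myosin and its kinase overlapped between the stripped groups. Myh11 was at 1154, 1397, 1049 and 1155 CPM in Cre and at 549.9 and 1090.1 CPM in TKO, so that only TKO replicate 1 lay outside the Cre range. Mylk behaved alike, at 257 to 322 CPM in Cre and 142 and 263 CPM in TKO. Their log2 differences were -0.54 ± 0.27 and -0.52 ± 0.24 (edgeR adjusted p = 0.433 and 0.393). Without TKO replicate 1 all 10 values stayed negative but spread out: Myh11 was at -0.13, Mylk at -0.14, Acta2 and Tpm2 at -0.23, Lmod1 at -0.27, Cnn1 at -0.28 and Tagln at -0.40, while Myocd was at -0.49, Tpm1 at -0.55 and Smtn at -0.58. Without TKO replicate 2 they lay between -1.11 (Myh11) and -0.67 (Myocd). Tagln (849 ± 68.0 CPM in Cre, 544 ± 138 in TKO), Cnn1 (418 ± 47.7 against 281 ± 90.4), Lmod1 (278 ± 16.8 against 185 ± 64.8) and Myocd (5.69 ± 1.08 against 3.803 ± 0.345) were lower in both TKO libraries than in all 4 Cre libraries.

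Of the 10 genes, 8 did not overlap, against 11.6% of all 16688 genes that were lower in both TKO libraries. By edgeR, 0 of the 10 passed an adjusted p of 0.05, against 0.024% of all genes (4, with 0.012% in each direction), and 8 had an unadjusted p under 0.05, all lower, as did 6.37% of all genes (7.38% higher). DESeq2, with 536 genes called in all, called 3: Smtn (adjusted p = 0.00732), Tagln (0.0124) and Tpm1 (0.0178). The median log2 fold change was -0.58 over the 10 and 0.0013 over all genes tested.

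All 35 further contractile apparatus genes had negative values too (median -0.50, 21 of them lower in both TKO libraries, 0 called), led by Cnn2, a calponin of many cell types (-0.76 ± 0.14, edgeR adjusted p = 0.138), the non-muscle myosin Myh9 (-0.69 ± 0.14) and the kinase Speg (-0.70 ± 0.17). Contraction signalling genes were negative in 24 of 32, led by the receptor Adra1a (1.48 ± 0.42), the calcium channel Cacna1c (-0.41 ± 0.12) and Camk2g (-0.39 ± 0.12). SRF and myocardin regulators were negative in 15 of 23, with the Notch target Heyl at -1.16 ± 0.14 (165 ± 12.3 CPM in Cre, 73.5 ± 14.0 in TKO, edgeR adjusted p = 0.0718), Tead3 at -0.40 ± 0.10 and Foxf1 at -0.82 ± 0.24. Of 20 genes of the matrix-producing state, 11 were positive, with Thbs1 at 0.93 ± 0.15, Spp1 at 1.04 ± 0.21 and Ccnd1 at -0.65 ± 0.20. Adipocyte markers were positive in 15 of 15, with sums of 1913 to 4141 CPM in Cre and 7549 and 8042 CPM in TKO and 0 markers at 0 counts. Mesothelial markers were negative in 8 of 8 (66.3 to 175 CPM in Cre, 24.99 and 34.6 CPM in TKO). Schwann cell and neuron markers were positive in 11 of 11 (171 to 339 CPM against 342 and 641 CPM), endothelial markers in 11 of 12 (497 to 805 CPM against 753 and 1377 CPM) and T cell markers in 10 of 10 (8.86 to 15.1 CPM against 12.8 and 129.7 CPM), with 0 called in these lists. The part of these tissues in the lower contractile levels was not tested.

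Whether the genotype difference itself differed between the aorta preparations was tested as a contrast of both differences. Tpm1 differed by -2.82 ± 0.56 and Tpm2 by -2.99 ± 0.69 on the log2 scale, stripped minus non-stripped, with edgeR adjusted p = 0.0863 and 0.0899. For Acta2 the contrast was 0.91 ± 0.39 (edgeR adjusted p = 0.2496), and for Smtn it was -0.42 ± 0.23 (edgeR adjusted p = 0.364). By edgeR 0 of 10 passed, against 0.00571% of 17501 genes (1), and 3 had an unadjusted p under 0.05 (Acta2, Tpm1, Tpm2), against 18.2% of all genes. DESeq2 called Tpm1 (adjusted p = 0.00284) and Tpm2 (0.011) among 878 genes in all. Without non-stripped TKO replicate 3 the contrasts were -2.05 (edgeR adjusted p = 0.0393) for Tpm1 and -1.98 (0.059) for Tpm2, in a fit that called 14 genes.

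Isolated fibroblasts had substantial Acta2, Tagln, Smtn and tropomyosin RNA but little Myh11, Mylk, Cnn1, Lmod1 and Myocd. In TKO, 9 of the 10 genes had positive log2 fold changes. Acta2 was at 1558, 818 and 882 CPM in Cre and at 1504, 1435 and 1769 CPM in TKO. Tagln was at 326, 172 and 181 CPM in Cre and at 330.0, 289 and 398 CPM in TKO. Cre replicate 1 lay among the TKO libraries for both genes, and the other 2 Cre libraries lay below them. The log2 differences were 0.53 ± 0.23 for Acta2 and 0.58 ± 0.24 for Tagln (edgeR adjusted p = 0.421 and 0.398, n = 3 and 3). Without Cre replicate 1 they were 0.88 and 0.94.

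Cnn1, Lmod1 and Tpm2 were higher in every TKO library, as were 8.86% of all 15673 genes tested (8.45% were lower in every one). Myocd was too, but it passed the filter on low counts only through TKO. Cnn1 was at 13.8, 4.80 and 7.42 CPM in Cre and at 18.1, 16.7 and 19.6 CPM in TKO (log2 difference 1.06 ± 0.33, edgeR adjusted p = 0.282). Lmod1 was at 16.3, 8.44 and 11.1 CPM in Cre and at 18.6, 21.3 and 29.1 CPM in TKO (0.94 ± 0.25, edgeR adjusted p = 0.257). The highest Cre library lay just below the lowest TKO library in both. Tpm2 was at 268 ± 57.7 against 368 ± 21.8 CPM (0.46 ± 0.15). Myocd, the coactivator gene, was at a low 0.187 to 0.218 CPM in Cre and 0.555 to 0.627 CPM in TKO (1.49 ± 0.32, edgeR adjusted p = 0.217). Since the filter kept Myocd through the group where it is high, its lack of overlap and its test are descriptions only.

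Myh11, Smtn, Mylk and Tpm1 overlapped. Myh11 was at 26.8, 20.1 and 21.2 CPM in Cre and at 20.9, 24.0 and 21.5 CPM in TKO, a log2 difference of -0.04 with a 95% interval from -0.33 to 0.25. Smtn had 0.06 (-0.22 to 0.34), Mylk 0.19 (-0.12 to 0.50) and Tpm1 0.18 (-0.06 to 0.42). By edgeR 0 of the 10 were called, against 0.0638% of all genes (10, with 0.0319% in each direction), and 5 had an unadjusted p under 0.05 (Tagln, Cnn1, Lmod1, Tpm2, Myocd), all higher, as did 5.55% of all genes (6.56% lower). Myocd is among these 5, though it passed the filter only through TKO. DESeq2, with 424 genes called in all, called Cnn1 (adjusted p = 0.0162) and Lmod1 (0.00709). The median was 0.49 over the 10 genes and 0.0079 over all genes tested.

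Further contractile apparatus genes were positive in 30 of 34 in fibroblasts, with a median of 0.17 and 0 called, led by the actin-binding Synpo2 (0.34 ± 0.09) and Fhl1 (0.82 ± 0.24). Contraction signalling genes were positive in 19 of 30, with Kcnma1 at 1.37 ± 0.29, Camk2g at 0.47 ± 0.11 and Pde5a at 0.72 ± 0.21. SRF and myocardin regulators were positive in 16 of 22 (Hand2, 0.67 ± 0.19; Tead3, 0.53 ± 0.16; Notch3, 0.74 ± 0.29). Genes of the matrix-producing state were positive in 14 of 20, with Col8a1 at 0.85 ± 0.17, S100a4 at 0.68 ± 0.17 and the macrophage gene Cd68 at -1.17 ± 0.36. None of these was called. Macrophage markers were negative in 9 of 9, with sums of 810.1 to 2331 CPM in Cre and 499 to 704 CPM in TKO. Skeletal muscle genes were positive in 14 of 16 (median 0.29, 0 called), with overlapping sums of 739 to 1168 CPM in Cre and 543 to 2281 CPM in TKO. The part of macrophage and skeletal muscle RNA in these differences was not tested.

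The genotype difference in fibroblasts was then set against that in each aorta preparation (contrasts added after the data were seen, which share the fibroblast libraries). Against non-stripped aorta, 0 of 10 passed by edgeR, as did 0.182% of 16987 genes (31). Cnn1 differed by 2.62 ± 0.58 (edgeR adjusted p = 0.0931), Acta2 by 1.92 ± 0.43 (0.0934), Lmod1 by 1.60 ± 0.36 (0.0933) and Tpm1 by -1.90 ± 0.48 (0.121), fibroblast minus non-stripped. Against stripped aorta, 0 of 10 passed by edgeR, as did 0.089% of 17977 genes (16), with all 10 contrasts positive. Myocd differed by 2.09 ± 0.36 (edgeR adjusted p = 0.0668) and Lmod1 by 1.55 ± 0.35 (0.0967). The Myocd contrast rests on fibroblast counts of 6 to 22. DESeq2 called 6 higher in the former (Acta2, Myh11, Tagln, Cnn1, Lmod1, Mylk) among 500 genes in all, and 7 higher in the latter (Tagln, Cnn1, Smtn, Lmod1, Tpm1, Tpm2, Myocd) among 647. Without non-stripped TKO replicate 3 the former contrast was -1.13 for Tpm1, which edgeR called (adjusted p = 0.0401), and -0.98 for Tpm2. It also called Acta2, Cnn1 and Tpm1 without non-stripped TKO replicate 2 (199 genes in all), and Acta2, Tagln, Cnn1 and Lmod1 without fibroblast Cre replicate 1 (45 genes). In the latter it called Tagln and Cnn1 without fibroblast Cre replicate 1 (24 genes) and Myocd without stripped Cre replicate 4 (144 genes). Without stripped TKO replicate 1, Myh11 in the latter moved from 0.52 to 0.09 and Mylk from 0.74 to 0.34.

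In TKO aorta, contractile genes were higher after anti-IL-9 than after IgG: 9 of the 10 rose by edgeR, against 21% of the 16463 genes tested that were called higher. Acta2 was at 315, 226 and 189.6 CPM with IgG and at 639.5 and 624.6 CPM with anti-IL-9. Myh11 was at 225, 130.5 and 119 CPM with IgG and at 380.1 and 359.8 CPM with anti-IL-9. The anti-IL-9 libraries lay close together and above all 3 IgG libraries, of which replicate 1 was the highest. Acta2 rose by 1.38 ± 0.22 on the log2 scale (edgeR adjusted p = 0.00397, n = 2 and 3) and Myh11 by 1.22 ± 0.28 (0.0150). Without IgG replicate 3 or anti-IL-9 replicate 1, Myh11 had an edgeR adjusted p = 0.0573 and 0.0680.

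The largest rise among the 10 was that of Cnn1. It was at 39.9, 23.8 and 18.4 CPM with IgG and at 89.9 and 102 CPM with anti-IL-9 (1.81 ± 0.29, edgeR adjusted p = 0.00387). Tagln was at 75.6, 62.1 and 50.5 CPM with IgG and at 151 and 145 CPM with anti-IL-9 (1.24 ± 0.18 on the log2 scale, edgeR adjusted p = 0.00214). Tpm2 was at 83.6, 67.2 and 53.0 CPM with IgG and at 162 and 188 CPM with anti-IL-9 (1.36 ± 0.20, edgeR adjusted p = 0.00235). Acta2, Tagln, Cnn1 and Tpm2 were called under every alternative run, each library left out in turn included.

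The other 4 rises did not hold throughout. Lmod1 rose by 0.90 ± 0.25 (21.9 ± 7.49 to 41.1 ± 3.23 CPM, edgeR adjusted p = 0.0334), Mylk by 0.51 ± 0.15 (103 ± 15.8 to 148 ± 0.731 CPM, 0.0395), Tpm1 by 0.53 ± 0.17 (184 ± 26.2 to 266 ± 30.3 CPM, 0.0485) and Myocd by 1.54 ± 0.47 (0.552 ± 0.299 to 1.63 ± 0.0688 CPM, 0.0463). Without anti-IL-9 replicate 1 their edgeR adjusted p were 0.0929, 0.125, 0.204 and 0.171, and without anti-IL-9 replicate 2 they were 0.123, 0.100, 0.0568 and 0.119. Leaving out IgG replicate 2 or 3 also lost all 4, with adjusted p from 0.0715 to 0.148, and leaving out IgG replicate 1 lost Tpm1 (0.117). Smtn, at 78.6, 80.2 and 52.8 CPM with IgG and 95.3 and 98.7 CPM with anti-IL-9, did not pass (0.46 ± 0.19, edgeR adjusted p = 0.109). DESeq2 called neither Smtn (DESeq2 adjusted p = 0.140) nor Myocd (0.0663), and called the other members of the list higher. All 10 genes were higher in both anti-IL-9 libraries than in every IgG library, as were 32.1% of all genes, and the median log2 fold change was 1.23 over the 10 and -0.014 over all genes tested.

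Scaling mattered for this table. Of all calls, 65.6% were in the higher direction (3462 of 5277), and 51.8% with upper-quartile factors, which moved the median of all genes by -0.12. With those factors 5 of the 10 were called: Acta2, Myh11, Tagln, Cnn1 and Tpm2. All 10 kept a positive log2 fold change.

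**Figure D3:**
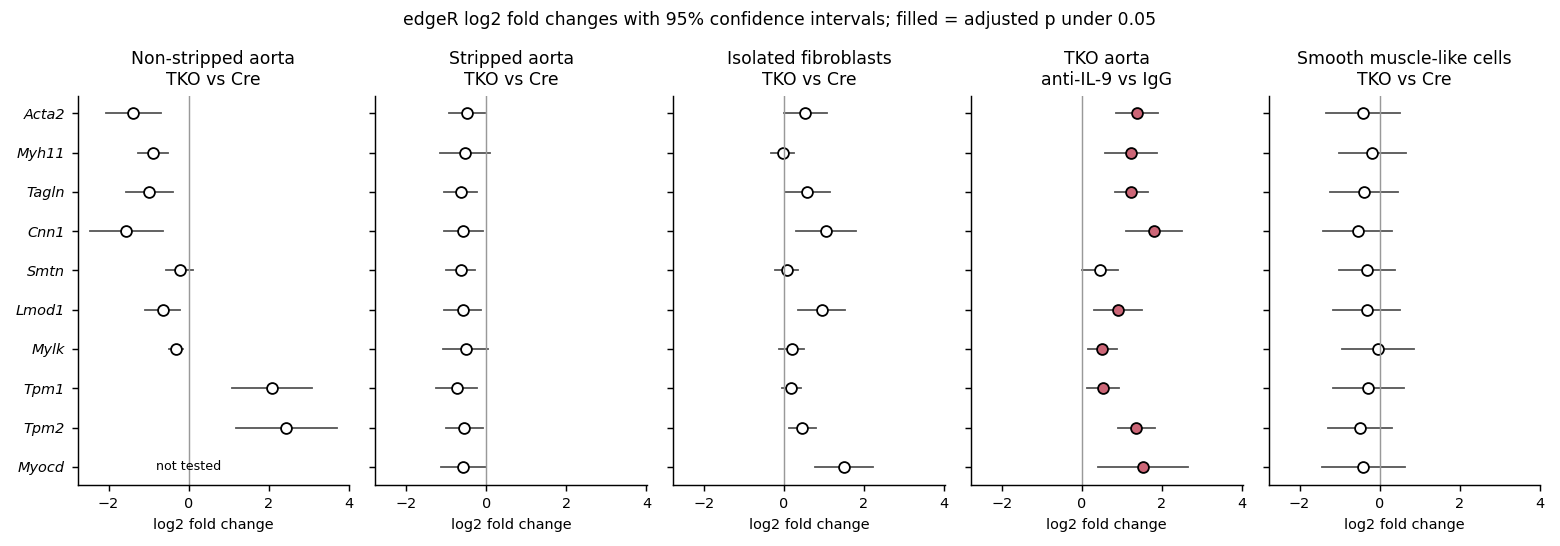
Log2 fold change (x axis) of each contractile gene in the 4 bulk comparisons and, in the last panel, in single-cell smooth muscle-like cells (TKO over Cre). Points are the edgeR estimate, bars its 95% interval, and filled points mark genes with an adjusted p under 0.05. In the anti-IL-9 panel 9 of 10 points are filled, and in non-stripped aorta Tpm1 and Tpm2 lie at 2.08 and 2.44 while the other tested genes lie below 0.

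Other tissue markers also differed between anti-IL-9 and IgG aortas. Rises and falls are counted here as edgeR calls, against 21% of all genes called higher and 11% called lower. Of 16 skeletal muscle genes, 15 rose, from sums of 15.5 to 60.8 CPM to 259 and 337 CPM, and the tropomyosins are among the genes that skeletal muscle makes. Schwann cell and neuron markers rose in 10 of 11, with sums of 369 to 664 CPM with IgG and 3880 and 4087 CPM with anti-IL-9. Mesothelial markers fell in 8 of 8 (143 to 327 CPM to 8.47 and 9.53 CPM), macrophage markers in 9 of 9, fibroblast markers in 10 of 12, endothelial markers in 10 of 12 and adipocyte markers in 7 of 15. All 12 fibroblast, 12 endothelial and 15 adipocyte markers had negative log2 fold changes, called or not. The part of these tissues in the contractile rise was not tested.

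Among 35 further contractile apparatus genes, 14 rose and 3 fell, with Pdlim3 at 1.39 ± 0.13 (edgeR adjusted p = 0.000328), the LIM protein Csrp1 at 1.42 ± 0.20 (0.00189) and Speg at 0.84 ± 0.12 (0.00213) the first by p. Contraction signalling genes rose in 12 and fell in 3 of 32, led by Rgs4, a brake on G protein signalling (2.23 ± 0.15), and by both subunits of soluble guanylate cyclase, the nitric oxide receptor, Gucy1a3 (2.13 ± 0.22) and Gucy1b3 (1.83 ± 0.19). SRF and myocardin regulators rose in 4 and fell in 3 of 23, near the 21% and 11% of all genes called higher and lower, with Hand2 at 3.69 ± 0.34 (16.3 ± 7.58 to 209.5 ± 15.6 CPM), a factor that sympathetic neurons also make and Hey2 at 1.83 ± 0.19. Genes of the matrix-producing state fell in 7 of 19 and rose in 0, led by Ly6a (-1.18 ± 0.18), the lectin Lgals3 (-1.34 ± 0.24) and the proteoglycan Lum (-1.49 ± 0.29), all called by edgeR. That list shares Lum, Col1a1 and Col3a1 with the fibroblast list and Cd68 with the macrophage list, whose markers fell as well.

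Across the 23 bulk libraries, likeness was measured as Pearson's r of log2(CPM + 0.5), centred on each table's mean, among 9080 genes with a mean of at least 5 CPM in every table. The libraries of a table share preparation and scaling, so r is a description. Acta2 was most like Cnn1 (r = 0.978), Tagln (0.973) and Myl9, the smooth muscle myosin light chain (0.950). Myh11 was most like Myl9 (0.904), Ppp1r14a (0.897), which encodes an inhibitor of myosin phosphatase, and Acta2 (0.887). Tpm1 followed other genes: Nexn (0.968), Cap2 (0.956) and Pde4dip (0.953), genes strongly expressed in striated muscle. The tropomyosins were like each other (0.925), while Acta2 and Tpm1 had r = -0.241. That r pools tables that differ. The log2 fold changes of Acta2 and Tpm1 had opposite signs only in non-stripped aorta (-1.38 and 2.08). They shared a sign in stripped aorta (-0.47 and -0.74), in fibroblasts (0.53 and 0.18) and after anti-IL-9 (1.38 and 0.53).

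In the single-cell libraries, 31825 of 114998 barcodes were kept, with 11056 and 2599 cells in Cre replicates 1 and 2 and 13183 and 4987 in TKO replicates 1 and 2, at median depths of 3149.5, 1704, 1639 and 1484 UMIs (transcript molecules). Libraries shared 175 to 338 barcodes by pair, of which 4 to 42 were kept cells in both. Cells were clustered without the 10 genes, and a cluster was called smooth muscle-like from markers such as Myl9, Des and Itga8 that include none of them. That cluster held 1632 cells: 1002 and 100 in Cre (9.06% and 3.85% of kept cells) and 387 and 143 in TKO (2.94% and 2.87%). Exact 95% intervals, for counting error only, were 8.53% to 9.61% and 3.14% to 4.66% in Cre, and 2.65% to 3.24% and 2.42% to 3.37% in TKO. With up to 20% mitochondrial UMIs allowed, the cluster held 1406 of 15843 and 528 of 9712 cells in Cre and 599 of 15897 and 370 of 8029 in TKO. Its shares in Cre replicate 2 and TKO replicate 2, and its size in Cre replicate 2, thus rest on that limit. Cre replicate 1 stood apart, with the deepest cells and the largest share, and at the limit of 10% used here the other 3 libraries lay close together.

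Among the classes and clusters compared, each contractile gene was highest in the smooth muscle-like cells of each library, apart from Tpm1 (Cre replicate 2, TKO replicate 2) and Mylk (Cre replicate 2, TKO replicate 1), which were higher in the second cluster described below. Acta2 was at 15388 and 7931 CPM there in Cre and at 8576 and 9632 CPM in TKO. In T-like cells, which should lack it, Acta2 was at 89.5 and 50.4 CPM in Cre and 299.9 and 85.3 CPM in TKO, a background that was highest in TKO replicate 1. Myh11 was at 4274 and 2487 CPM in smooth muscle-like Cre cells and at 3446 and 2813 CPM in TKO, Tagln at 10180.4 and 8081 CPM against 5978 and 8517 CPM, and Mylk at 1738 and 761 CPM against 1457 and 1099 CPM. Myocd, at 191 and 85.7 CPM against 173 and 47.3 CPM, was at 3.42 CPM or less in T-like cells.

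A second cluster with contractile RNA held 281 cells and was left unnamed, since the pericyte marker Rgs5 and the smooth muscle markers Actg2 and Nrip2 were both among its leading genes. Acta2 was at 3549.6 to 5264 CPM and Tpm1 at 1635 to 2583 CPM in its 4 libraries. Smtn set it apart from the smooth muscle-like cells, at 79.0 to 146 CPM against 552 to 771 CPM. Below both, a fibroblast-like cluster led by Thbs4, Tnmd and Fmod held Acta2 at 305.5 to 490.4 CPM, Tagln at 504 to 735 CPM and Tpm1 at 221 to 323 CPM, with Myh11 at 39.6 to 100.5 CPM, near the 46.6 to 164 CPM of T-like cells. That cluster held 542 and 102 cells in Cre and 2140 and 757 in TKO. Large-vessel endothelial-like cells (Vwf, Bmx, Gja5) held Tagln at 248.5 to 885 CPM, with Cre replicate 2 the lowest at 34 cells.

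**Figure D4:**
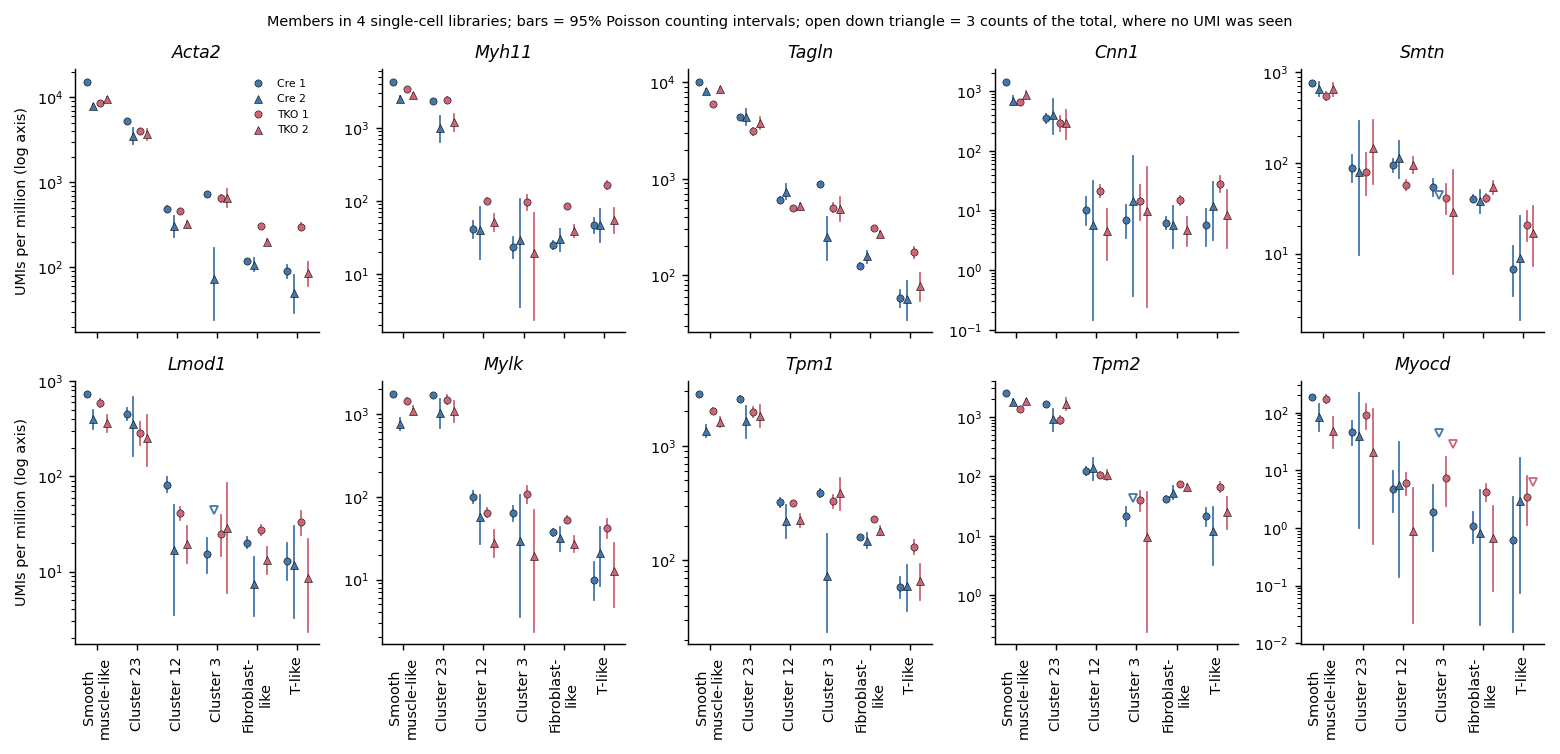
Level of each contractile gene (CPM of summed UMIs, log axis) by cell class or cluster on the x axis, with a point for each of the 4 single-cell libraries and an open triangle at 3 counts of the total where no UMI was found. Acta2 lies between 7931 and 15388 CPM in smooth muscle-like cells and between 50.4 and 299.9 CPM in T-like cells.

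Between genotypes, the contractile genes of smooth muscle-like cells were not shown to differ. All 10 log2 fold changes were negative, from -0.55 ± 0.39 (Cnn1) to -0.05 ± 0.41 (Mylk), with edgeR adjusted p = 0.999 for each (n = 2 and 2 libraries). The median was -0.36 over the 10 and 0.0067 over the 6491 genes tested. By edgeR 0 of 10 were called, against 0.0154% of all genes (1), with 0 of 10 at an unadjusted p under 0.05 (3.74% of all genes) and 0 by DESeq2, and the groups did not overlap for 1 gene, Smtn, against 14.8% of all genes. The 95% interval ran from -1.34 to 0.50 for Acta2 and from -1.02 to 0.66 for Myh11. Without Cre replicate 1, 7 of the 10 changed sign, Acta2 to 0.14 and Myh11 to 0.27.

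In the same cells, 24 of 34 further contractile apparatus genes were negative with 0 called (Des, -0.69 ± 0.32; Hspb6, -0.56 ± 0.32; Pln, 0.81 ± 0.51). Contraction signalling genes were negative in 17 of 27 (Rgs2, 1.03 ± 0.47; Gucy1b1, -0.57 ± 0.34; Kcnmb1, -0.49 ± 0.31). SRF and myocardin regulators were negative in 9 of 14, with Notch3 at 1.49 ± 0.35 (edgeR adjusted p = 0.396), Hand2 at -1.48 ± 0.64 and Prrx1 at 0.62 ± 0.31, none called. Of 19 genes of the matrix-producing state 10 were positive, and Lum was the 1 gene called in the whole fit (59.0 ± 14.4 CPM in Cre, 321 ± 48.8 in TKO, 2.56 ± 0.33, edgeR adjusted p = 0.0481). Lum is also on the fibroblast list. Col8a1 was at 1.18 ± 0.28 and Ly6a at 1.32 ± 0.37, not called. Fibroblast markers were positive in 10 of 12 within these cells, and T cell markers in 5 of 5. Predicted doublets made up 6.19% of this cluster, and the caller marked 1943 cells in TKO replicate 1 against 0, 5 and 0 in the other libraries. With predicted doublets left out and cells clustered again, the cluster held 262 cells of TKO replicate 1 instead of 387. Neither the part of free RNA from other cells nor that of doublets in these marker values was tested.

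Summed over all kept cells, the 10 genes were also negative, with a median of -0.88 (-0.010 over all 15315 genes tested), and 0 passed by edgeR, against 0.242% of all genes (37). Acta2 was at 1851 and 369.9 CPM in Cre and at 551.5 and 447 CPM in TKO. The TKO libraries lay between the Cre libraries for Acta2, and without Cre replicate 1 its difference changed sign, from -1.12 ± 0.65 to 0.31. At an unadjusted p under 0.05, 0 of the 10 passed, against 2.27% of all genes, and DESeq2 called 0. The groups did not overlap for 0 of the 10, against 10.3% of all genes that were lower in both TKO libraries.

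The share of each gene's UMIs that came from smooth muscle-like cells differed between genes and libraries. For Cnn1 it was 93.8% and 75.0% in Cre and 50.7% and 75.0% in TKO, and for Acta2 91.3% and 74.3% against 46.3% and 64.9%. Tpm1 had the lowest shares, 71.1% and 33.6% in Cre and 24.3% and 28.0% in TKO, and fibroblast-like cells gave 10.0% and 24.0% of its UMIs in Cre and 31.6% and 37.2% in TKO. Fibroblast-like cells were 31.5% and 26.4% of kept cells in Cre and 35.7% and 39.1% in TKO, above their share of Tpm1 UMIs in each library. Smtn came from smooth muscle-like cells at 77.8% and 41.6% in Cre and 31.9% and 32.7% in TKO. The share was highest in Cre replicate 1 for all 10 genes, and TKO replicates 1 and 2, with 2.94% and 2.87% of kept cells in the smooth muscle-like cluster, still differed in it.

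**Figure D5:**
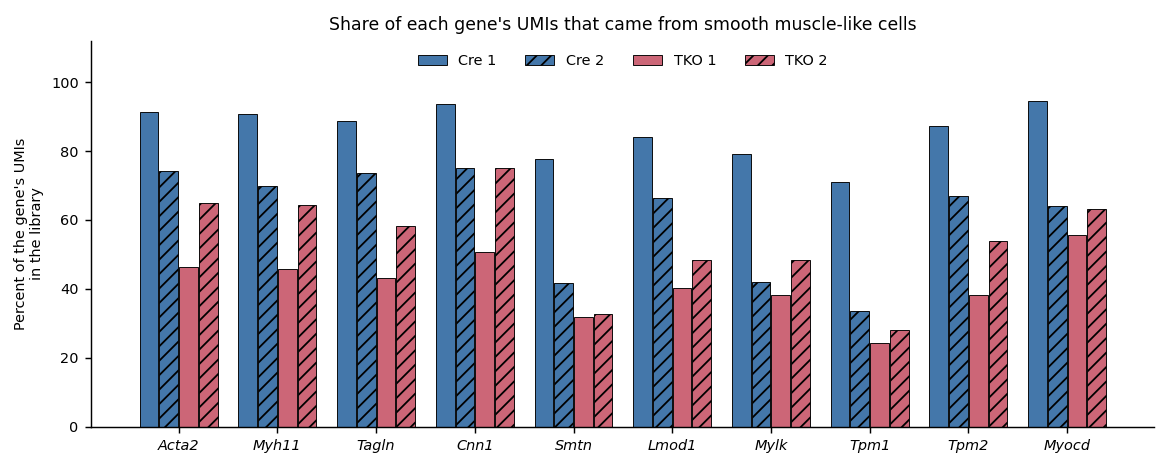
Percent of each contractile gene's UMIs in a single-cell library (y axis) that came from smooth muscle-like cells, with bars for Cre replicates 1 and 2 and TKO replicates 1 and 2. Cre replicate 1 has the tallest bar for all 10 genes, and Tpm1 has the lowest share in TKO replicate 1, at 24.3%.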

How the data were processed

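Gene counts of 23 bulk libraries were deposited by the authors in 4 tables. Per the submitters' processing notes, Trimmomatic 0.36, STAR 2.5.2b, and featureCounts of Subread 1.5.2 were used with GRCm38. Per the file headers, the deposited UMI counts of 4 single-cell libraries are output of Cell Ranger (version 6.0.0). Gene length was not given in the tables, so levels per kilobase used GENCODE vM21 exons.

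Each table was fitted alone with the edgeR 4.0.16 quasi-likelihood test (R 4.3.3, TMM factors, filterByExpr with a minimum count of 10, Benjamini-Hochberg adjustment over all genes tested, threshold 0.05). A contrast of genotype differences between tables was fitted on the libraries of both tables together. DESeq2 1.42.0 was an alternative. The row with no gene name (at most 0.0025% of counts) was left out, 27 rows with date-like names stayed in, and 1 column of per-sample values matched no sample and was not used. CPM values carry the TMM factors of their table, and those of single cells are UMIs per 1e6 UMIs of the class. The Lum means and SDs in smooth muscle-like cells are the exception, since they carry the TMM factors of the single-cell test.

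Cells with at least 500 genes, at least 1000 UMIs and at most 10% mitochondrial UMIs were kept and clustered with scanpy 1.11.5 (1991 genes without the 10, 40 components, 15 neighbours, resolution 1). A cluster took the name of the marker list with the highest mean log2 ratio to other cells, of at least 1, where at least 3 of its markers were detected and its top 10 genes held at least 1 of them and no more markers of another class. The doublet caller marked 0, 5, 1943 and 0 cells and was taken to have failed in 3 of the 4 libraries, so no cell was removed in the main results. UMI counts were summed per library and class and tested as above. Counting intervals are exact (Clopper-Pearson).

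All 10 genes are reported, and per list at most the 3 genes with the smallest p, apart from items that are not reported here. The genes and lists were chosen with earlier results of these data known. Pipelines were tested on simulated counts.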

Additional observations from a re-analysis of the deposited data

How the results depend on the processing

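In non-stripped aorta DESeq2, no filter on low counts and a joint fit of all 23 libraries each called 2 of the genes higher and 4 lower, and leaving out 1 library called 0 to 2 higher and 0 to 1 lower (2 and 1 without TKO replicate 2 or 3). In stripped aorta DESeq2 called 3 lower. In fibroblasts DESeq2 called 2 higher and no filter called 4. Leaving out 1 fibroblast library moved Myh11 between -0.12 and 0.10 (0.0015 without TKO replicate 1) and Smtn between -0.047 and 0.17 (-0.015 without Cre replicate 2). For anti-IL-9, upper-quartile factors called 5, and leaving out 1 library called 4 to 8. The contrast of stripped with non-stripped aorta called 2 lower under DESeq2, the joint fit and no filter, and 0 to 1 with 1 library left out (1 without non-stripped TKO replicate 3 or stripped Cre replicate 4). With 1 library left out its values ranged from -0.19 to 0.75 for Myh11, from -0.31 to 0.36 for Lmod1 (-0.054 without non-stripped Cre replicate 1) and from -0.68 to 0.15 for Mylk. Where 1 library was left in an arm, it was assumed to vary like the other groups. The cause of these changes was not tested.

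In smooth muscle-like cells, Mylk changed sign to 0.048 with the replicate block and to 0.078 with predicted doublets left out (an alternative added after the data were seen). The correlation of same-numbered libraries was 0.165, and 0.306 over whole libraries, but 2 pairs are too few to say that the numbers pair them, and the replicate block called 0 of the 10 genes in both fits. It called 41 genes in all in smooth muscle-like cells, against 1. With 1 library left out the ranges were -0.85 to 0.14 for Acta2, -0.54 to 0.27 for Myh11, -0.99 to 0.082 for Cnn1, -0.71 to 0.22 for Lmod1, -0.53 to 0.69 for Mylk, -0.74 to 0.37 for Tpm1 and -1.72 to 0.47 for Myocd. The upper ends come from leaving out Cre replicate 1, and without TKO replicate 2 Mylk was at 0.11 and Myocd at 0.11. Over whole libraries no filter called 2 lower, and leaving out 1 library called 0 to 2 (2 without Cre replicate 2). The ranges there were -1.82 to 0.31 for Acta2, -1.48 to 0.39 for Myh11, -1.49 to 0.042 for Tagln, -2.11 to 0.087 for Cnn1, -1.45 to 0.54 for Lmod1, -1.35 to 0.41 for Mylk, -1.004 to 0.47 for Tpm1, -1.52 to 0.060 for Tpm2 and -2.52 to 0.24 for Myocd, again with the upper ends from leaving out Cre replicate 1.

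Over all genes the number called rose from 18 to 801 with DESeq2, 766 with no filter and 696 in the joint fit in non-stripped aorta, from 4 to 536, 64 and 381 in stripped aorta, and from 10 to 424, 682 and 66 in fibroblasts. With 1 library left out it was 0 to 486, 0 to 30 and 3 to 10. For the contrast of stripped with non-stripped aorta it rose from 1 to 878 with DESeq2, 159 with no filter and 481 in the joint fit, and was 0 to 242 with 1 library left out. For the fibroblast contrasts it was 4 to 199 (non-stripped) and 1 to 144 (stripped) with 1 library left out. For anti-IL-9 it was between 3516 and 6768 in every alternative. Depth limits Myocd most, at 0.187 to 1.68 CPM outside stripped aorta.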
